A study of Drosophila melanogaster with 2 samples.

Results

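The Hox genes of Drosophila melanogaster were examined for binding of CG32767, a protein known by its gene number and encoded on the X chromosome. They are 8 genes, named by symbol, of the 13945 protein-coding genes that the Ensembl annotation places on the 6 chromosome arms. Chromatin immunoprecipitation and sequencing had been done on whole embryos collected 0 to 24 hours after laying, from transgenic flies that expressed CG32767 fused to eGFP, with an anti-GFP antibody. All material formed 1 group, with 2 biological replicates and no other genotype, treatment or stage, and no control library was analysed here. Whole embryos of this age span mix all tissues and most of embryogenesis, so a summit cannot be placed in a segment or a stage. The deposited files are lists of peaks without read counts, so the depth of the libraries is unknown and no contrast between conditions was possible.

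Hox genes encode homeodomain transcription factors that give each stretch of the body axis its identity. In this fly they lie in 2 clusters on chromosome arm 3R, the Antennapedia complex (lab, pb, Dfd, Scr and Antp, for the head and the thorax) and the bithorax complex (Ubx, abd-A and Abd-B, for the posterior thorax and the abdomen). Both clusters hold long stretches of regulatory DNA, with enhancers, insulators and Polycomb response elements, which are the places where Polycomb and Trithorax proteins keep a Hox gene off or on. The annotation used here gives no positions for such elements, so no summit was assigned to one.

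A peak was counted for a Hox gene when its summit, the position of highest signal, lay in the gene's span or within 5 kb of it, a stretch called the gene's window below. The 8 windows did not overlap and covered 418 kb in all. The conservative thresholded list of the whole series (3533 peaks, 3531 of them on the 6 arms) is called the main list, and the other thresholded list of the whole series (4636 peaks) the longer list. Each replicate also had a thresholded list (2887 peaks in replicate 1 and 2624 in replicate 2) and a ranked list of all its candidates (93099 and 82441). The signal of a peak is the authors' own value, in units of their peak caller, and serves to rank peaks within 1 list. Across the main list its median was 104.8 and its highest value 1304.

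Of the 13 main-list summits in Hox windows, 6 belonged to Abd-B, 4 to Antp and 1 each to Scr, Ubx and abd-A, while lab, pb and Dfd had none. The 101 bp around the strongest summit of each of these 5 genes, around a further Abd-B summit that held both motifs, and around 3 summits between the genes are shown because they carry the sequence features described further on. They are from the RefSeq dm6 assembly, forward strand, and the capitals mark GCCAT and GAGAG on either strand (ATGGC and CTCTC on the reverse). GCCAT is the core of sites bound by Pleiohomeotic, a DNA-binding Polycomb-group protein, and GAGAG that of sites bound by GAGA factor, the product of Trithorax-like.
Scr, left of the gene, chr3R:6818645-6818745: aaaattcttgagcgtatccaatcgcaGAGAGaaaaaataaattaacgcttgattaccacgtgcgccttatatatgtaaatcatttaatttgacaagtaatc
Antp, left of the gene, chr3R:6893296-6893396: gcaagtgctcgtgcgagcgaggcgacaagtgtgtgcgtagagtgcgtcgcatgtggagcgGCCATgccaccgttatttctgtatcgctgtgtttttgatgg
Ubx, intron, chr3R:16702983-16703083: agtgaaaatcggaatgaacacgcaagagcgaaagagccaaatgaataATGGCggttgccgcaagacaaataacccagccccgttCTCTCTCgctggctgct
abd-A, intron, chr3R:16811898-16811998: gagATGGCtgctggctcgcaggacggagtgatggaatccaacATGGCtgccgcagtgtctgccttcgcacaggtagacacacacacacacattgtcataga
Abd-B, promoter, chr3R:16960366-16960466: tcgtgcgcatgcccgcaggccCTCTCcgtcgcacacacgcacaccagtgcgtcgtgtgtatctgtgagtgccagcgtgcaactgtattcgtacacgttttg
Abd-B, intron, chr3R:16948773-16948873: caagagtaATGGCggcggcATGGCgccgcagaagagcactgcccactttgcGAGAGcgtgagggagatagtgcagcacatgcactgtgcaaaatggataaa
Between abd-A and Abd-B, strongest, chr3R:16913688-16913788: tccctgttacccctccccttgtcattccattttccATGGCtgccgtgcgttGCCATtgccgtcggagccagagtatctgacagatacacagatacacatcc
Between abd-A and Abd-B, nearer abd-A, chr3R:16869473-16869573: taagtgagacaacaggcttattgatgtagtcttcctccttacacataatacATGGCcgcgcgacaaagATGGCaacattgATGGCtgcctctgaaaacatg
Between Dfd and Scr, chr3R:6810761-6810861: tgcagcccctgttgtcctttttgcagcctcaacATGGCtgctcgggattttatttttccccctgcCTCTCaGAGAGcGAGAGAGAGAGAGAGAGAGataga

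Abd-B, which specifies the posterior abdomen, carried the most summits and the strongest within a window. Its highest peak (dm6, 3R, 16960294 to 16960558) had a signal of 344.6 in the main list, rank 190, with 119.5 in replicate 1 and 222.2 in replicate 2. The summit lay 135 bp upstream of the start site of the Abd-B-RA transcript, inside the longer Abd-B transcripts, and was the 1 main-list summit at a Hox promoter, where a promoter is the 500 bp on either side of a transcription start site (TSS). A second strong peak (16970074 to 16970263) had a signal of 242.5, with 78.7 in replicate 1 and 165.9 in replicate 2, and lay in an Abd-B intron 1596 bp upstream of the nearest TSS. Both peaks were in the thresholded list of either replicate, and both were higher in replicate 2.

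The 4 further Abd-B summits were intronic too. The peak at 16958240 to 16958629 had a signal of 145.3, with 55.6 in replicate 1 and 84.8 in replicate 2, and the peak at 16948628 to 16949017 had 113.1, with 48.0 and 70.9. Both passed the threshold of replicate 2 alone. The peak at 16969345 to 16969734 had 53.9, with 40.1 in replicate 1 and 32.7 in replicate 2, and was in neither replicate's thresholded list. The last peak, at 16970176 to 16970565, had 62.9, and its summit lay 201 bp from that of the peak of 242.5, which it overlapped, so these may be read as 1 place.

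The number of Abd-B summits differed between the replicates, with 2 in the list of replicate 1 and 9 in that of replicate 2, although the ranked lists held like numbers of candidates, 45 and 48. These counts did not follow signal alone. The replicate 2 summits at 16958437 and 16948740 overlapped replicate 1 candidates of 55.6 and 48.0, which missed the list of replicate 1. Antp peaks of 41.5 and 44.0 were in that list. The replicate 2 summit at 16970401 lay 200 bp from a stronger one and overlapped a listed peak of replicate 1. At the start site of Abd-B-RH, the leftmost TSS of the gene, a summit 168 bp upstream had a signal of 54.9 in replicate 2, while of the overlapping candidates of replicate 1 the one with the nearest summit had 2.69 and the strongest 28.1. In the intron at 16938194 the signals were 22.0 in replicate 1 and 94.9 in replicate 2. At 16972746, 510 bp upstream of the gene's rightmost TSS, they were 16.4 and 69.6. At 16923757, left of the gene, replicate 2 had 59.7 and replicate 1 had no overlapping candidate. These 4 summits were in the longer list, which held 11 for Abd-B, and not in the main list, so the Abd-B count rests on the list used more than any other Hox gene's.

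abd-A, which specifies the anterior and middle abdomen, had 1 summit in each of the 4 thresholded lists, at the same place. The peak (16811826 to 16812051) lay in an abd-A intron, 16157 bp from the nearest abd-A TSS, and had a signal of 300.5 in the main list, rank 245. Replicate 1 gave 115.1 and replicate 2 gave 192.7, at percentiles 99.4 and 99.9 of their candidates. At the abd-A promoters there was no summit in a thresholded list. The strongest candidates there had 19.0 in replicate 1 and 54.8 in replicate 2.

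Ubx, which sets the identity of the posterior thorax and of the haltere, had 1 summit over a span of 77.8 kb. It lay inside the gene, in an intron (16702838 to 16703227), 31393 bp from the Ubx TSS, with a signal of 99.7 in the main list, 34.2 in replicate 1 and 59.8 in replicate 2. The peak passed the threshold of replicate 2 and not that of replicate 1. The Ubx promoter had the lowest top candidate of the 8 in replicate 2 and, like that of Scr, none in replicate 1. Within 500 bp of its TSS replicate 1 listed no candidate at all, and replicate 2 listed 1 with a signal of 6.94, at percentile 23.6 of that list.

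Antp, which gives the thorax its identity and has the longest span (103 kb), had 4 main-list summits, none at an Antp promoter. The strongest (6893151 to 6893540) had a signal of 188.6, with 63.5 in replicate 1 and 119.0 in replicate 2, and lay 2907 bp to the left of the gene, 116 bp downstream of the start of lncRNA:CR45559. The intronic peak at 6936130 to 6936519 had 104.5, with 54.6 in replicate 1 and 44.5 in replicate 2. Both of these were in the list of either replicate.

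The remaining Antp summits passed the threshold in neither replicate alone. The intronic one (6920047 to 6920436) had 81.5 in the main list, with 47.5 in replicate 1 and 29.0 in replicate 2. The other (7000837 to 7001226) had 65.3, with 39.4 and 33.4, and lay 1804 bp to the right of the gene in a non-coding part of an exon of lncRNA:CR45899. Outside the main list, Antp introns held 3 summits of replicate 1 alone, with signals of 41.5, 47.0 and 44.0, against 21.4, 25.1 and no candidate in replicate 2. Antp thus had 5 summits in replicate 1 and 2 in replicate 2, the opposite order to Abd-B.

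Scr, which acts in the labial segment and the anterior thorax and is needed for the salivary glands, had 1 main-list summit (6818500 to 6818889). It lay 4425 bp to the left of the gene, 29810 bp from the nearest Scr TSS and 1199 bp upstream of a lysine tRNA gene, which is nearer. Its signal was 79.6 in the main list, 61.4 in replicate 1 and 31.4 in replicate 2, and it passed the threshold of replicate 1 alone. The Scr promoter had a summit in the longer list (71.4) and in the list of replicate 2 (49.7, 78 bp from the TSS), whereas replicate 1 listed no candidate within 500 bp of a Scr TSS.

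Dfd, lab and pb act in the head, Dfd in the mandibular and maxillary segments, pb in the adult mouthparts, and lab in the most anterior domain and the midgut. Dfd had 1 summit in the longer list, 326 bp upstream of its TSS, with a signal of 73.5. The candidate with the nearest summit had 27.8 in replicate 1 and 36.1 in replicate 2, but the strongest overlapping one of replicate 1 had 43.3, so the order of the replicates there depends on which is taken. lab and pb had no summit in any of the 4 thresholded lists. Their strongest candidates were 26.7 in replicate 1 and 43.4 in replicate 2 for lab, at opposite ends of its window, and 29.5 and 32.3 for pb.

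**Figure D1:**
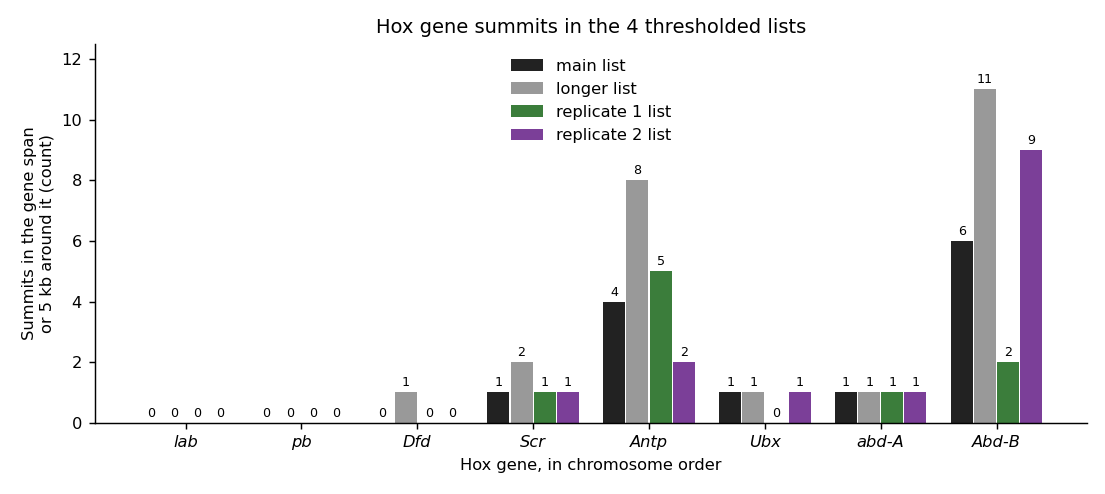
Number of peak summits in the span of each Hox gene or 5 kb around it (y axis, count) in the 4 thresholded lists (bars, with the count above each). Abd-B held 6 summits in the main list and 11 in the longer list, with 2 in replicate 1 and 9 in replicate 2, while lab and pb held none in any list.

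Candidates close to the TSS were listed for most Hox genes, at signals far below that of Abd-B. The strongest candidate within 500 bp of a TSS had 26.7 in replicate 1 and 29.0 in replicate 2 for lab, and 27.6 and 32.3 for pb. For Antp these were 26.8 and 18.0. None of the 3 genes had a promoter summit in a thresholded list. The Abd-B promoter, at 119.5 and 222.2, was the highest of the 8 in both replicates. In replicate 2 the next were those of abd-A (54.8) and Scr (49.65), of which that of Scr was in the thresholded list.

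Taken as a group, the Hox genes had summits about as often as other protein-coding genes. A main-list promoter summit was found for 1 of 8 Hox genes against 14.1% of the 13945 protein-coding genes. With the longer list it was 3 of 8 (Dfd, Scr and Abd-B) against 17.4%, in the list of replicate 1 it was 1 (Abd-B) against 12.1%, and in that of replicate 2 it was 2 (Scr and Abd-B) against 10.6%.

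Windows grow with gene length, so Hox windows were also set beside those of genes of similar span. A main-list summit in the window was found for 5 of 8 Hox genes against 39.0% of all protein-coding genes and 55.7% of the 1784 whose span was within the range of the Hox genes (10593 to 102976 bp). With the longer list it was 6 of 8 against 45.3% and 62.9%. In the list of replicate 1 it was 4 of 8 against 34.9% and 50.4%, and in that of replicate 2 it was 5 of 8 against 30.4% and 47.1%. Each Hox count lay within 2 genes of what the share among genes of like span would give. Single genes differed more. The median gene of like span held 1 summit, 8.46% held at least as many as Antp (4), and 1.96%, or 35 genes, held at least as many as Abd-B (6).

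Summits were also counted per length. The Hox windows held 31.1 main-list summits per Mb (95% exact Poisson interval 16.6 to 53.2), against 26.4 over the 6 arms (25.5 to 27.3) and 24.9 over 3R (23.2 to 26.7). With the longer list the windows held 57.5 per Mb (36.8 to 85.5) against 34.5 over the arms (33.5 to 35.5). This interval, unlike that of the main list, lay above the value of the arms. The longer-list count includes weak summits 199 to 212 bp from a stronger one, such as those at 6903627, 6936524 and 16958636, with signals of 7.93, 8.75 and 6.30. It was not recounted with such summits merged, so the difference from the arms may rest on them. The Antennapedia complex, from 5 kb before lab to 5 kb after Antp (348 kb), held 10 summits or 28.8 per Mb (13.8 to 52.9). The bithorax complex (326 kb) held 19 or 58.4 per Mb (35.1 to 91.1), an interval wholly above the value of the arms. These intervals cover counting error over summits only. When the arms were divided into stretches of the same length, 46.7% of 381 held at least as many as the Antennapedia complex, and 5.62% of 409 held at least as many as the bithorax complex, with a median of 8 summits and a maximum of 30. In the list of replicate 1 the bithorax complex held 33.8 per Mb (16.9 to 60.4) against 21.5 over the arms, and in that of replicate 2 it held 58.4 (35.1 to 91.1) against 19.6. The interval of replicate 1 thus holds the value of the arms.

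Of the 19 bithorax summits, 11 lay outside the gene windows. The strongest of the complex was among them (16913595 to 16913861), 13.5 kb to the left of Abd-B in an intron of lncRNA:iab8, the non-coding transcript that spans the DNA between abd-A and Abd-B and hosts mir-iab-8. Its signal was 427.6 in the main list, rank 124, with 160.9 in replicate 1 and 268.5 in replicate 2, above that of any Hox window peak in each. The peak at 16869450 to 16869631, 39.5 kb from abd-A, had 271.1, with 111.2 in replicate 1 and 157.8 in replicate 2. Both passed the threshold in either replicate.

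The next 4 by signal along the same transcript were weaker. At 16847220 to 16847609 the signal was 134.6, with 64.3 and 69.0 in the replicates. At 16882486 to 16882875 it was 126.0, with 55.3 and 67.6, and at 16899753 to 16900142, 116 bp upstream of an internal start of lncRNA:iab8, it was 111.3, with 49.3 and 65.0. At 16875518 to 16875907 it was 99.6, with 46.8 and 53.7. All 4 were in the list of either replicate and higher in replicate 2. On the other side of abd-A, a peak in an intron of lncRNA:bxd (16763987 to 16764376), the non-coding gene next to Ubx, had 171.2, with 81.6 in replicate 1 and 90.9 in replicate 2. It lay 29.8 kb from Ubx. The remaining 4 had signals of 19.3 to 68.8, and 2 of them were the weaker members of pairs 200 and 204 bp apart.

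The 5 Antennapedia summits outside the windows were all in the list of either replicate. The strongest (6881685 to 6882074) lay in an intron of lncRNA:CR44931, 14.4 kb from Antp, with a signal of 156.8, 98.3 in replicate 1 and 60.7 in replicate 2. The peak at 6810616 to 6811005, between Dfd and Scr and 8 bp from the start of lncRNA:CR45915, had 121.2, with 48.0 and 64.5. The other 3 lay at bcd, the gene of the anterior maternal determinant, and at its neighbour Ama.

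**Figure D2:**
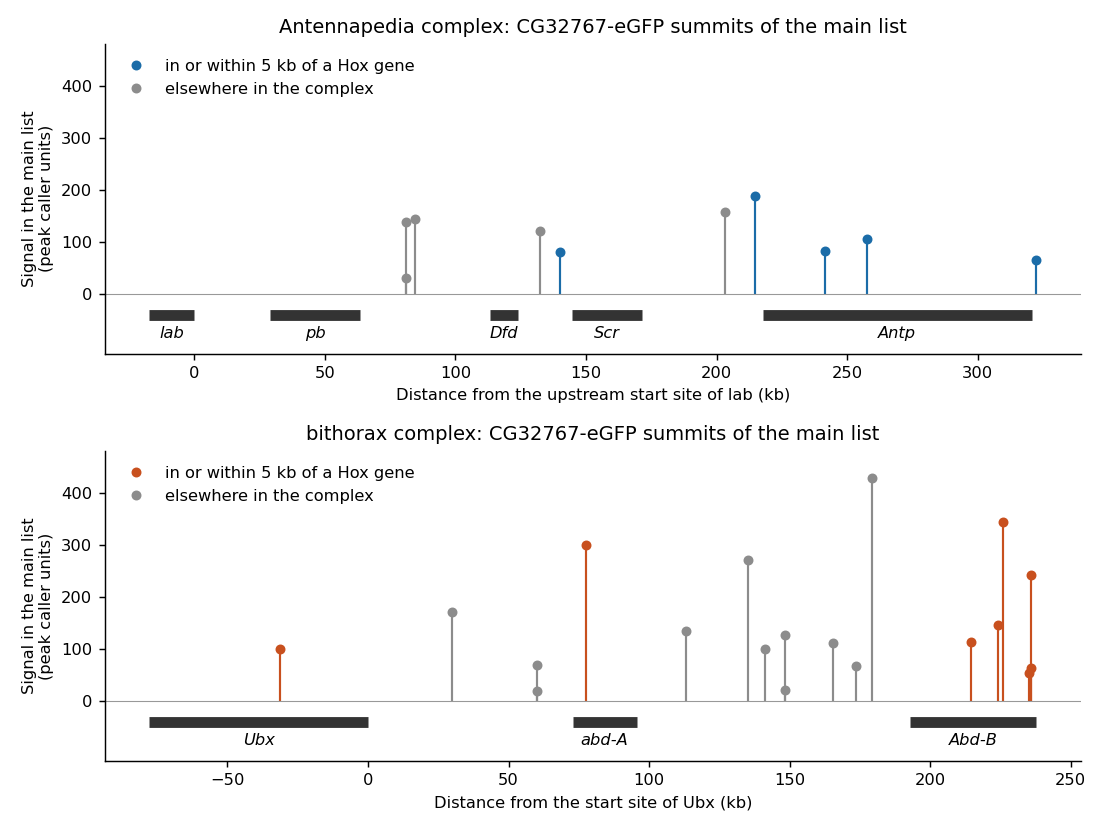
Signal of each main-list summit (y axis, peak caller units) along the Antennapedia complex and the bithorax complex (x axis, distance in kb from a TSS of lab or Ubx), with the Hox genes as bars below. Coloured points lie in a Hox gene or within 5 kb of one and grey points elsewhere, and the highest, at 427.6, is a grey point between abd-A and Abd-B.

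Most Hox summits lay away from promoters. Of the 13 in windows, 9 were intronic, 2 were within 500 bp of a TSS of any gene, 1 was intergenic and 1 in an exon. The 2 near a TSS make 15.4%, against 50.6% of all main-list summits. More than 2 kb from a TSS were 5 of the 13 (38.5%), against 26.8% of all. In the 2 complexes together, with the DNA between the genes, 7 of 29 were near a TSS (24.1%) and 15 were more than 2 kb from one (51.7%). These shares were not compared with those at genes of like span. The median signal in the windows, 104.5, was close to that of the whole list, 104.8.

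The balance between the replicates differed between the 2 complexes. Signals of separate lists need not share a scale, so the ratio of replicate 2 to replicate 1 at a Hox summit was set beside that at all 3488 main-list summits with a candidate in both, whose median log2 ratio was -0.22 with 36.7% higher in replicate 2. In the bithorax complex the median was 0.29 and 16 of 19 were higher in replicate 2 (84.2%). In the Antennapedia complex it was -0.50 and 2 of 10 were higher. The quartiles over all 3488 were -0.63 and 0.22, so the Antennapedia median lay between them and the bithorax median above them. The complexes also differed in the median share of A and T around their summits, 46.5% in the bithorax and 68.8% in the Antennapedia complex. Whether the ratio moves with base composition was not tested. Over the 13 window summits the ratio ran from -0.97 at Scr and at the weaker of the overlapping Abd-B peaks to 1.08 at the stronger one. Both of these Abd-B peaks take their replicate 1 value from the same candidate, 201 bp from the weaker summit. The -0.97 there thus sets the second summit of replicate 2 against the main one of replicate 1. The bithorax summits at 16794376 and 16794580 take the same candidate in each replicate. So do those at 16882681 and 16882881, and the Antennapedia summits at 6759557 and 6759779. The counts of summits higher in replicate 2 therefore hold repeated values. Of the peaks of replicate 1 in Hox windows, 5 of 9 shared at least 1 bp with a peak of replicate 2 (55.6%, against 57.5% of all its peaks). Of those of replicate 2, 6 of 14 overlapped one of replicate 1 (42.9%, against 64.5%). Within the whole bithorax complex each of the 11 peaks of replicate 1 was shared, and 11 of the 19 of replicate 2.

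**Figure D3:**
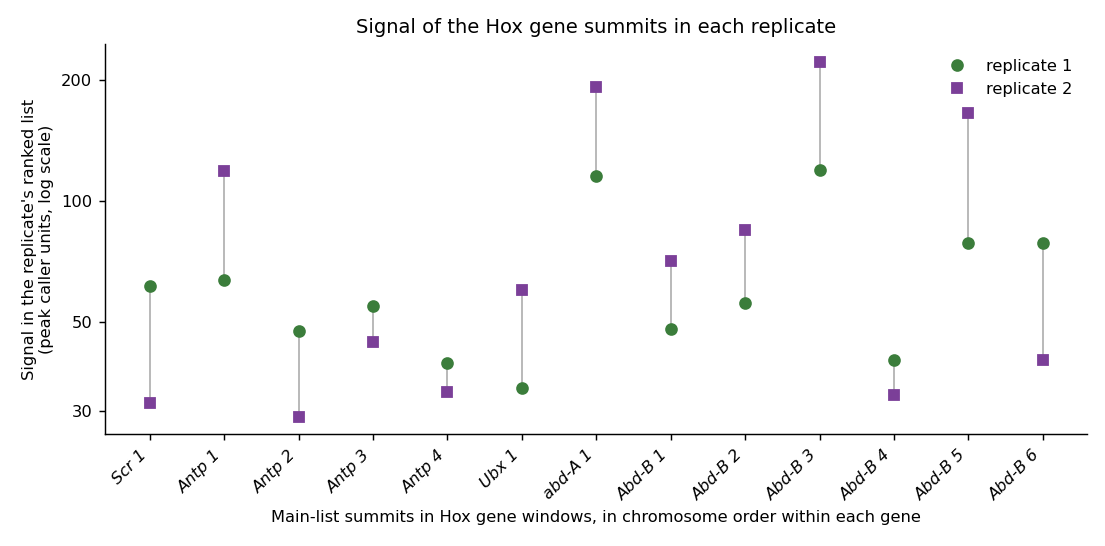
Signal of the 13 main-list summits of Hox windows in the ranked list of replicate 1 (circles) and replicate 2 (squares), on a log scale in peak caller units, in chromosome order within each gene. The abd-A summit and the strongest Abd-B summit reach 192.7 and 222.2 in replicate 2, and 7 of the 13 were higher in replicate 2.

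**Figure D4:**
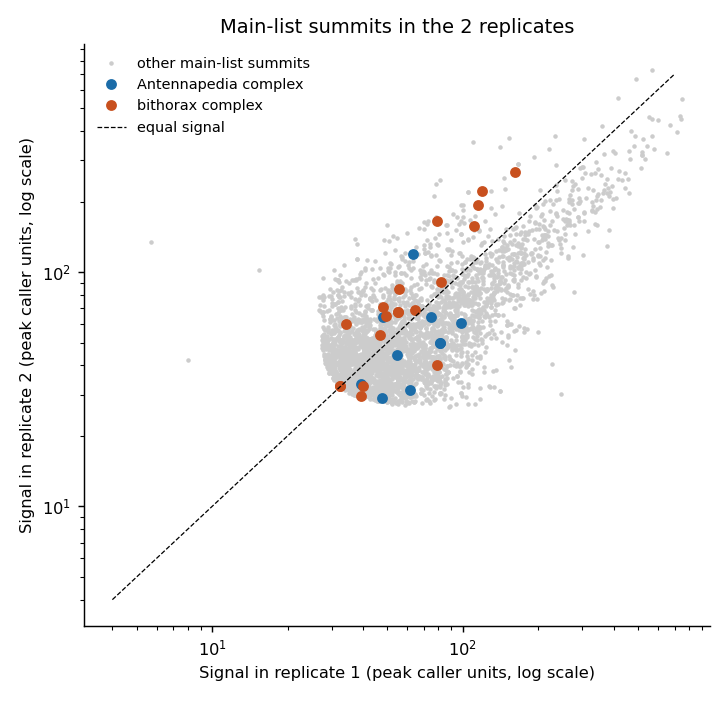
Signal of each main-list summit in replicate 1 (x axis) and replicate 2 (y axis), both on log scales in peak caller units, with the dashed line marking equal signal. Of the bithorax summits (orange), 16 of 19 lie above the line, against 2 of 10 Antennapedia summits (blue) and 36.7% of all. Neighbouring summits that take the same candidate in each replicate fall on the same point and are counted separately.

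The sequences printed above show what many Hox summits shared. Within 50 bp of the summit, on either strand, GCCAT was present at 7 of the 13 window summits (53.8%, 95% exact interval 25.1 to 80.8), against 13.9% of all main-list summits (12.8 to 15.1) and 14.3% of those more than 2 kb from a TSS. GAGAG was present at 6 of 13 (46.2%, 19.2 to 74.9) against 13.0% of all, and at least one of the pair at 10 of 13 (76.9%) against 883 of all 3531. In the bithorax complex 12 of 19 summits held GCCAT (63.2%, 38.4 to 83.7) and 6 of 19 held 2 or more copies (31.6% against 1.70% of all). GAGAG was at 6 of the 19 bithorax summits (31.6%, 12.6 to 56.6), an interval that holds the 13.0% of all summits. In the Antennapedia complex 4 of 10 held GCCAT and 4 of 10 GAGAG. The distance from the summit to the centre of the nearest GCCAT varied. It was 1 bp in Ubx, 6 bp in abd-A, and 3 bp at both peaks printed from between abd-A and Abd-B. At the other window summits with GCCAT it was 12 and 31 bp for Antp and 27, 29 and 39 bp for Abd-B. These distances were not compared with those at other main-list summits. The strongest Abd-B peak held GAGAG and no GCCAT.

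Base composition moved with these counts. The median share of A and T in the 101 bp was 46.5% in the bithorax complex, 68.8% in the Antennapedia complex and 65.3% over all main-list summits. Among the 510 main-list summits of at most 50% A and T, 26.5% held GCCAT (22.7 to 30.5) and 29.6% held GAGAG. Of these 510, 4.90% held 2 or more copies of GCCAT, against 5 of 11 such bithorax summits (45.5%, 16.7 to 76.6). Of the bithorax summits of like composition, 9 of 11 held GCCAT (81.8%, 48.2 to 97.7), and 5 of 6 in the Hox windows (83.3%). GAGAG was at 6 of these 11 (54.5%, 23.4 to 83.3) and at 4 of these 6 (66.7%, 22.3 to 95.7), intervals that hold the 29.6% of main-list summits of like composition. Over the whole length of the bithorax complex, cut into consecutive stretches of 101 bp, 25.9% held GCCAT and 12.2% held GAGAG, with a median of 57.4% A and T. In the Antennapedia complex these were 20.4%, 13.6% and 58.4%. Of the bithorax stretches, 5.58% held 2 or more copies of GCCAT. The GCCAT share at bithorax summits of at most 50% A and T (81.8%) was thus higher than at main-list summits of like composition (26.5%). The stretches of surrounding DNA were not limited to that composition, so their shares are not matched ones. Neighbouring summits were counted separately, and the motif was chosen with earlier results of these data known. These shares are thus a description and not a test.

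**Figure D5:**
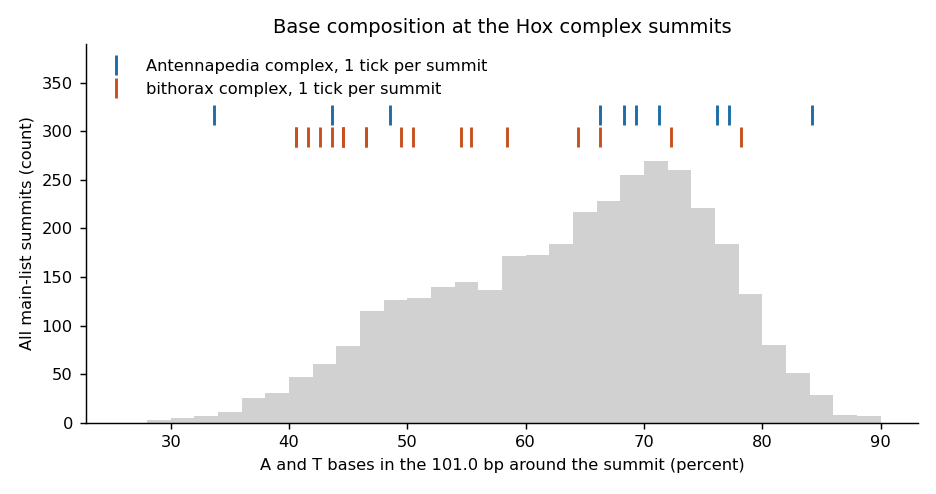
Share of A and T in the 101 bp around each main-list summit (x axis, percent), as a histogram of all 3531 summits (grey, count) with 1 tick for each summit of the Antennapedia complex (blue) and of the bithorax complex (orange). The bithorax ticks have a median of 46.5%, against 65.3% over all summits.

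Words of homeodomain and other factors were at few of the Hox summits or at none. TAATTA, a homeodomain core, and TGATNNAT, a core of joint sites of Hox proteins and Extradenticle, were at 0 of the 13 window summits, against 8.89% and 7.05% of all. TATCGATA, the DREF site, and a run of 7 A, AAAAAAA, were also at 0 of 13, against 1.42% and 13.2%. CACGTG, an E-box, was at 1 of 13, beside Scr, against 0.85%. CACACA was at 4 of 13 (30.8%) against 11.2%, among them the abd-A peak and the strongest Abd-B peak. These shares move with base composition, since among the main-list summits of at most 50% A and T they were 24.5% for CACACA, 0.784% for TAATTA, 1.76% for TGATNNAT and 3.33% for AAAAAAA. With 13 summits a count of 0 allows a share of up to 24.7% (95% exact interval), which is above each of the shares of the whole list given here.

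Summits were also counted at genes tied to the Hox genes. Of the 4 other homeobox genes of the Antennapedia complex, bcd had a promoter summit (137.2, with 81.0 in replicate 1 and 50.03 in replicate 2), and zen, zen2 and ftz had no summit in their windows. Of 6 cofactors and homeotic partners, 3 had a window summit and 2 of these a promoter summit, beside 39.0% and 14.1% of all protein-coding genes. The homeodomain cofactor gene hth had 5, the strongest an intronic one of 141.2 (77.8 and 60.5), and exd, whose product is its partner, had 2 with a promoter summit of 92.2 (33.5 and 53.5). disco-r had a promoter summit of 117.7 (41.5 and 71.9), and disco, tsh and tio had none.

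Of 10 textbook targets of Hox proteins, 7 had a window summit and 3 a promoter summit, beside the same 39.0% and 14.1%. Among genes of Hox-like span 55.7% had a window summit, but fkh, ems, rpr and wg are shorter than that range of spans. The highest was at Dll, the limb gene that Ubx and abd-A repress, with 260.8 at its promoter (100.8 in replicate 1 and 161.4 in replicate 2). The salivary gland gene fkh, a target of Scr, had 199.9 at its promoter (81.4 and 111.8), and dpp, which Ubx regulates in the midgut, 162.6 in an intron (108.0 and 57.9). The knot gene kn had 134.0 (79.1 and 67.8), outside its span and 31 bp from the start of asRNA:CR42254. The Abd-B target ems had a promoter summit of 117.8 (46.8 and 70.7), and the Abd-B target ct had 115.9 in an intron (56.1 and 58.8). rpr, wg and salm had none.

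The protein-coding genes whose promoter summit was most like that of Abd-B were HmgZ, CG31522 and Rm62, of 1941 genes with such a summit and a candidate in both replicates. Likeness was the Euclidean distance between the log2 signals of replicate 1 and replicate 2. It was 0.119 for HmgZ, with 129.8 and 221.6 against the 119.5 and 222.2 of Abd-B, 0.264 for CG31522 and 0.326 for Rm62. Over 2 replicates this describes a similar height alone.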

How the data were processed

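Whole embryos of 0 to 24 hours expressing CG32767-eGFP were assayed by ChIP-seq in 2 biological replicates. Per the labels, chromatin was sonicated and the assembly was dm6. The labels name a possible control, which was not analysed here, and no aligner or peak caller is stated in the sources used here. In all, the authors deposited 8 peak lists. Of these, 4 were thresholded by the irreproducible discovery rate (IDR), which compares peak ranks between 2 sets. The other 4 were ranked lists of candidates without that limit. The signal of each peak in the deposited lists was used as given, in units of the authors' peak caller. A deposited score is the IDR on a scale to 1000, and the lowest score of the main list, 830, stands for an IDR of 0.01. The −log10 IDR in the deposited ranked lists was not used further. A total of 4 columns of per-sample signal in the combined ranked lists could not be tied to a replicate by name and were not used.

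Files were read with Python 3.11.15, pandas 2.3.3 and numpy 2.4.6, intervals computed with scipy 1.17.1, sequence read with pysam 0.24.0 from the RefSeq dm6 assembly, and figures drawn with matplotlib 3.10.9. Genes came from Ensembl release 115 (BDGP6.54), and the 8 Hox genes had the same coordinates in RefSeq. Peaks on scaffolds other than the 6 arms were left out. A main-list summit was given, in each replicate, the signal of the overlapping candidate (at least 1 bp) with the nearest summit. Counting was tested on simulated peaks. Named were all Hox genes, every main-list summit in their windows, the strongest candidates of members without one, up to 6 members of each related list by signal, and the 3 genes most like a Hox gene with a promoter summit. Further summits of the complexes and of single lists were named after their values were seen. Members, gene lists and motifs were chosen with earlier results of these data known. With 1 group, no test between conditions was made. Alternatives were the longer list, each replicate alone, the stronger 50% of peaks, other distances and overlaps and, added after the data were seen, merging of summits within 250 bp and a limit of 50% A and T.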

Additional observations from a re-analysis of the deposited data

How the results depend on the processing

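The counts for Hox genes changed with the list and with the signal limit. With the longer list, promoter summits were found for 3 Hox genes in place of 1, window summits rose from 13 to 24 and their density from 31.1 to 57.5 per Mb, while that of the arms went from 26.4 to 34.5. With the stronger 50% of main-list peaks, 3 genes in place of 5 had a window summit and window summits fell to 6. Their density fell to 14.4 per Mb, and summits of both complexes fell from 29 to 16. When the list of replicate 1 was so limited, 3 of its peaks in place of 5 were shared. Such a limit removes 50% of the peaks of a list by construction, so falls of about this size carry no information about Hox genes. With either replicate's list alone, promoter genes ranged from 1 to 2, window genes from 4 to 5, window summits from 9 to 14, density from 21.6 to 33.5 per Mb and complex summits from 21 to 26. Flanks of 0, 2 or 10 kb, promoter distances of 250 or 1000 bp and other definitions of overlap left each count within 1.5 times. Main-list summits within 250 bp counted as 1, an alternative added after the data were seen, gave 12 in the windows and 25 in the complexes. The bithorax complex then held 16, and 8.56% of stretches of its length held at least as many. Among window summits of at most 50% A and T, also added later, 83.3% held GCCAT in place of 53.8%. No paired analysis was possible because there was 1 group. The depth of the libraries is unknown, and each replicate is 1 library. Of the 13 window summits, 3 were in the main and longer lists and in the thresholded list of neither replicate.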

Other observations

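Several GCCAT copies at the bithorax summits stood in a longer word, ATGGCTGC, which holds the reverse complement of GCCAT and was chosen after the sequences had been seen. It was within 50 bp of the summit at 6 of 19 bithorax summits (31.6%, 95% exact interval 12.6 to 56.6) and at 1 of 10 Antennapedia summits, against 24 of all 3531 main-list summits (0.68%), of which the Hox complexes thus hold 7. The abd-A peak held 2 copies. Since the word was picked from these summits, its share there is a description and not a test.

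In the longer list a peak between abd-A and Abd-B (dm6, 3R, 16857699 to 16858088), 1552 bp from the start of mir-iab-8, had a signal of 102.0 and differed most between the replicates among the summits of that list in both complexes outside the Hox windows, with 9.38 in replicate 1 and 85.6 in replicate 2.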
